A study of Mus musculus with 21 samples.

Results

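The genes described here are the structural core of the extracellular matrix: collagens, laminins, nidogens, fibrillins, fibulins, elastin, fibronectin, thrombospondins and other matricellular proteins, and the small and large matrix proteoglycans. They were chosen by gene symbol, with earlier results of these data known, and 63 of the 12404 genes in the deposited tables matched. Of these, 56 were listed in the table of mouse embryonic fibroblasts (MEFs), 54 in that of reprogramming cells without vitamin C (Vc-), 60 in that with vitamin C (Vc+), and 51 in all 3.

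RNA had been sequenced from MEFs of ICR mice (embryos of day 13.5, passage 2) and from SKOM cells, which are MEFs infected with retroviruses for Oct4, Klf4, c-Myc and Sox2 and collected on day 5 of reprogramming in embryonic stem cell medium with LIF. Every culture also carried further retroviral constructs. The MEF libraries had the control constructs (Flag and shLuc), Dnmt1, shDnmt1, shp53, shp53 with shDnmt1, or Tet1CD, and a seventh library with control constructs is labelled 5C, a term the labels do not explain, while its column name adds day 4. In each medium the SKOM libraries had control constructs, Dnmt1, shDnmt1, shp53 with shDnmt1, Tet1CD, Tet1CD with Dnmt1, or Tet1CD with shDnmt1. All 14 SKOM libraries thus share the 4 factors, and shp53 occurs in SKOM cells only together with shDnmt1. Dnmt1 is the maintenance DNA methyltransferase, Tet1 oxidises methylated cytosine, the letters CD commonly stand for its catalytic domain, and the shp53 construct targets Trp53 transcripts. Each combination was sequenced once per setting, and the labels do not tell whether cultures were separate, so all p-values given here measure only the spread between these libraries.

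The interstitial matrix of connective tissue is built on fibrils of collagen I, III and V, to which small leucine-rich proteoglycans bind, and on elastic microfibrils of fibrillin and fibulin. Basement membranes are sheets of collagen IV and laminin, a trimer of an alpha, a beta and a gamma chain, joined by nidogen. Fibroblasts are the main producers of interstitial matrix, and reprogramming to pluripotent cells passes through a loss of fibroblast features and a gain of epithelial ones.

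Each deposited table was scaled by its authors and rounded to whole numbers, so depth is unknown, levels are not compared between genes, and levels are not strictly comparable between tables. Each table has a ceiling shared by 10 genes in all but 1 library (38803 in MEFs, 19681 in Vc-, 28926 in Vc+), with a step of 0.97, 0.87 and 0.67 on the log2 scale to the next value. In the MEF control 5 of those 10 genes were members, namely Bgn, Col1a2, Fbln2, Fn1 and Thbs1, so any difference among these at the top is compressed. Within each SKOM table the sorted values were nearly the same in every library, with a median of 180 in Vc- and 226 in Vc+. At most 8.9% of ranks in Vc- and 15.0% in Vc+ held another value than in the control. A value thus largely gives a gene's place in a list shared by the table. Just below the ceiling these values come in groups of 10 genes. All 12 fibroblast markers were listed in MEFs, with sums of 37998 to 43511 in the 6 libraries (18157 to 23670 without Vim, which was 19841 in each), and none of the 6 pluripotency markers was listed in any table. The targeted genes were checked first. Trp53 was 157 and 186 in the MEF libraries with shp53 against 888 to 1008 in the other 4, and 453 and 621 in the SKOM libraries with shp53 against 594 to 873 (Vc-) and 803 to 1365 (Vc+) in the rest. Dnmt1 in libraries with shDnmt1 was 208 and 410 in MEFs against 957 in the control, though 1622 with shp53 alone and 458 with Tet1CD. In SKOM cells it was 527 and 726 with shDnmt1 against 984 in Vc- and 1154 and 1319 against 2346 in Vc+, and with Tet1CD and shDnmt1 it was 437 and 655. Tet1CD alone gave 967 in Vc- and 1080 in Vc+, and Tet1CD with Dnmt1 778 and 1224, so in Vc+ every library with Tet1CD had a Dnmt1 value below 1319. Libraries with the Dnmt1 construct and no Tet1CD had values close to those of controls (975 against 957, 1001 against 984 and 2381 against 2346). Tet1 was 2140 to 3129 with Tet1CD and 11 to 88 without it in SKOM cells, a value that adds reads of the construct to any from the cell's own Tet1 gene, and Tet1 was not listed in MEFs.

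With Tet1CD, most matrix genes rose in SKOM cells. In a model over all 14 libraries, 42 of the 54 members listed in both media rose with Tet1CD and 2 fell, where 20.3% of all 10711 genes rose and 24.9% fell, 45.2% in all, by limma at an adjusted p under 0.05 after Benjamini and Hochberg. Of the 54, 3 are listed in 1 medium only through libraries with Tet1CD (Col11a2) or only through those without it (Col27a1 and Lum). Of the other 51, 41 rose and 2 fell. The median change was 0.49 on the log2 scale over the members and -0.04 over all genes. Risen members came from every class: 8 of 10 fibrillar collagens, 6 of 7 basement membrane collagens, 6 of 6 other collagens, 11 of 12 laminins and nidogens, 5 of 8 adhesive or matricellular proteins, 3 of 5 elastic fibre genes and 3 of 6 proteoglycans. The 2 that fell were the elastic fibre genes Fbn2 and Fbln1, of which Fbln1 lost the call without any one of 4 Vc+ libraries. Without all 4 libraries labelled Dnmt1, which leaves 10 libraries, 20 members rose and 1 fell, beside 823 and 970 of all genes.

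In the separate fit to the 7 Vc+ libraries, 37 of 60 members rose and 3 fell (20.7% and 23.6%, together 44.2%, of 12021 genes), with a median of 0.59 against -0.07 over all genes. Col11a2, Col20a1, Col24a1 and Smoc1 are listed in Vc+ only through libraries with Tet1CD, as are 423 of all genes, so their difference is set in part by the listing. Col20a1 had 13, 13, 19 and 16 without Tet1CD and 40, 29 and 41 with it, and Col11a2 28, 28, 23 and 26 against 57, 48 and 71. These 2 are among the 37, and 35 of the other 56 members rose. In the fit to the 7 Vc- libraries, 26 of 54 rose and 2 fell (7.25% and 7.38%, together 14.6%, of 10722 genes), with a median of 0.32 against -0.01. There Lum and Col27a1 are listed only through libraries without Tet1CD, and neither was called. These separate fits have 2 residual degrees of freedom. The Vc- count was unstable: 1 member rose without the Vc- library with Dnmt1, 1 without that with Tet1CD and Dnmt1, 6 without Tet1CD and shDnmt1, and 8 without shDnmt1, and in each of these 4 cases 0 fell. The count over all genes was unstable too. It dropped from 777 risen to 3 without Vc- Dnmt1, and from 791 fallen to 2 without Vc- Tet1CD with Dnmt1. Leaving out either Vc- library labelled Dnmt1 gave the same changes, such as 0.97 for Col15a1, because the Dnmt1 term then takes up the other. The same holds for shDnmt1 and Tet1CD with shDnmt1, so these are not 4 separate checks. The Vc- calls of Col7a1, Col8a1, Col5a2, Col1a2, Col2a1, Dcn and Fbn2 were among those lost without Dnmt1 or without Tet1CD and Dnmt1 (adjusted p = 0.103 to 0.178). The 3 that fell in Vc+ were 1 without the Vc+ control, Dnmt1, Tet1CD, or Tet1CD with Dnmt1. Of 54 members in both media, 19 rose in both, 1 fell in both, 7 rose in Vc- only and 16 in Vc+ only, as counts that do not themselves test a difference between media. The same overlap was not counted over all genes. Of all genes 14.6% were called in Vc- and 44.2% in Vc+, so more calls in Vc+ only are not particular to the members.

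Below, the values within a medium are given in the order control, Dnmt1, shDnmt1, shp53 with shDnmt1, and then, with Tet1CD, Tet1CD alone, with Dnmt1 and with shDnmt1. Fold changes are on the scale of log2(value + 5), which understates the change of low genes, with the SE and the adjusted p of limma. The difference between media is the interaction of Tet1CD with vitamin C, from a model over the 14 libraries with 4 residual degrees of freedom. In this model and in the separate fits, leaving out a library with Tet1CD or its match without Tet1CD gives the same change. Such omissions are not separate checks.

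**Figure D1:**
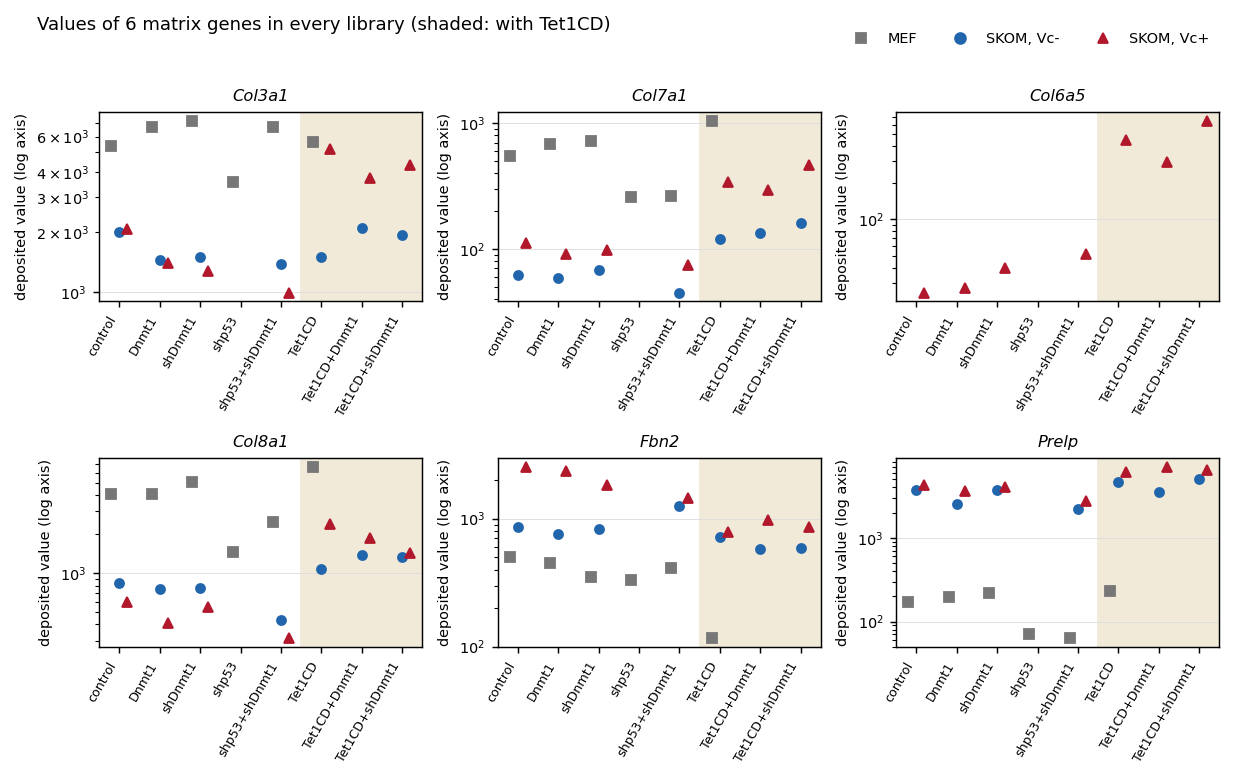
Deposited value (vertical log axis) of 6 matrix genes in every MEF and SKOM library except 5C, by construct (horizontal axis), with the libraries carrying Tet1CD shaded and 1 point per library. Col6a5 lies at 25 to 52 without Tet1CD and at 295 to 646 with it in Vc+, Col8a1 is higher with Tet1CD in both media, Fbn2 is lower with it in both, and Prelp lies at 63 to 234 in MEFs and at 2234 to 7072 in SKOM cells. Tables were normalized separately.

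Among fibrillar collagens the largest changes were those of Col5a2, Col3a1 and Col1a2. Col5a2 (chr1:45374321-45503282, minus strand, mm10), a chain of collagen V, which sets the diameter of collagen I fibrils, had values of 3137, 2355, 2114 and 1775 in Vc+ without Tet1CD and of 10325, 6415 and 8017 with it. The Vc- values of Col5a2 were 3706, 3331, 3706 and 2641, against 4436, 6333 and 4834. The groups did not overlap in either medium. The rise of Col5a2 was 1.11 ± 0.22 over both media (adjusted p = 0.00208), 1.69 ± 0.11 in Vc+ (adjusted p = 0.000356) and 0.52 ± 0.12 in Vc- (adjusted p = 0.0338), and its difference between media was 1.17 ± 0.19 (adjusted p = 0.00459).

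Col3a1 encodes collagen III, the fibril collagen of pliable tissue and of wound beds, and lies next to Col5a2 in opposite orientation, with 49303 bases between the 2 genes. Its Vc+ values were 2082, 1395, 1279 and 998 without Tet1CD and 5184, 3734 and 4301 with it. Its Vc- values were 1999, 1457, 1496 and 1386, and 1496, 2086 and 1939. Only in Vc+ were the groups apart. Col3a1 rose by 1.49 ± 0.11 in Vc+ (adjusted p = 0.000486), its Vc- change was 0.16 ± 0.17 (adjusted p = 0.550), and the difference between media, 1.33 ± 0.23, was the largest of the members (adjusted p = 0.00630). Over both media it rose by 0.82 ± 0.25 (adjusted p = 0.0200), a call that was lost without any one of 5 Vc+ libraries (adjusted p = 0.0525 to 0.0573), namely Dnmt1, shDnmt1, Tet1CD, Tet1CD with Dnmt1 or Tet1CD with shDnmt1.

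Col1a2, the second chain of collagen I, had 7099, 5376, 5376 and 3912 in Vc+ without Tet1CD and 13581 in each of the 3 libraries with it. That value lies in the step of 10 genes at 13535 to 13586 in the Vc+ control. The size of the Vc+ rise and its SE are set in part by this step. In Vc- Col1a2 had 4833, 4633, 4833 and 4236, then 6573, 5762 and 7031. The groups were apart in both media. The difference of its rise between media was 0.77 ± 0.13 (adjusted p = 0.00668), from 0.43 ± 0.06 in Vc- (adjusted p = 0.00931) to 1.20 ± 0.11 in Vc+ (adjusted p = 0.000828). Its partner chain Col1a1 rose by 0.34 ± 0.11 over both media (adjusted p = 0.0242), and its adjusted p was 0.0522 to 0.0673 without Vc- Dnmt1, or without Vc+ control, Dnmt1, shDnmt1, Tet1CD with Dnmt1 or Tet1CD with shDnmt1.

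Col2a1, the cartilage collagen, went the other way between media. Without vitamin C it had 255, 217, 242 and 262 without Tet1CD and 430, 461 and 430 with it. In Vc+ it had 494, 453, 500 and 454, against 458, 521 and 402. The Vc- groups were apart and the Vc+ groups overlapped. It rose by 0.88 ± 0.09 in Vc- (adjusted p = 0.00578), its Vc+ change was -0.07 ± 0.12 (adjusted p = 0.646), and the difference was -0.95 ± 0.15 (adjusted p = 0.00516). Col11a1, Col11a2, Col5a1 and Col5a3 rose by 0.50 to 0.75 over both media, and Col27a1 had a change of 0.00 ± 0.18. The rise of Col11a2 is set in part by its listing in Vc+ through libraries with Tet1CD only.

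Col7a1 (chr9:108953586-108984875, plus strand), which forms the anchoring fibrils below epithelial basement membranes, had the largest change over both media. Its Vc+ values were 112, 91, 98 and 74 without Tet1CD and 343, 296 and 465 with it. Its Vc- values were 62, 59, 68 and 45, and 119, 134 and 161. All libraries with Tet1CD lay above all without it in both media. The rise was 1.43 ± 0.14 (adjusted p = 8.56e-05), with 1.06 ± 0.10 in Vc- (adjusted p = 0.00595) and 1.80 ± 0.15 in Vc+ (adjusted p = 0.000637). The difference between media was 0.74 ± 0.19 (adjusted p = 0.0277), and that call was lost without any one of 8 libraries, namely each Vc- library except shp53 with shDnmt1, Vc+ Dnmt1, and Vc+ Tet1CD with Dnmt1 (adjusted p = 0.0579 to 0.108).

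Col15a1 (chr4:47208161-47313163, plus strand), a collagen found at the outer face of basement membranes, had 87, 83, 96 and 117 in Vc- and 188, 185 and 181 with Tet1CD. In Vc+ it had 250, 191, 193 and 191, then 337, 377 and 466. Again, within each medium, no library with Tet1CD fell into the range of those without. The rise was 0.95 ± 0.10 over both media (adjusted p = 0.000119). The collagen IV chains Col4a1 and Col4a2, the network of all basement membranes, start 21 bases apart on opposite strands of chromosome 8, and whether the counting used strand is not given in the sources used here. Col4a2 rose by 0.65 ± 0.09 and Col4a1 by 0.31 ± 0.08 (adjusted p = 0.000454 and 0.0104). Of the second such pair, whose starts lie 1309 bases apart on the X chromosome, Col4a5 rose by 0.74 ± 0.12 (adjusted p = 0.000721) and Col4a6 had 0.31 ± 0.12 (adjusted p = 0.0517). Col18a1 rose by 0.71 ± 0.16, and Col17a1, listed only in Vc+, had -0.11 ± 0.13 there.

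The sharpest single change in Vc+ was that of Col6a5 (chr9:105856078-105960643, minus strand), a further chain of the beaded-filament collagen VI. It had 25, 27, 40 and 52 without Tet1CD and 451, 295 and 646 with it, and it was not listed in Vc- or in MEFs. The lowest value with Tet1CD lay far above the highest without it. The rise was 3.67 ± 0.17 (adjusted p = 0.000165). The standard chains Col6a1, Col6a2 and Col6a3 rose by 0.50, 0.35 and 0.55 over both media.

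Col8a1 (chr16:57624258-57754737, minus strand), a short-chain collagen of vessel walls and of the sheet under corneal endothelium, had 596, 411, 546 and 312 in Vc+ and 2414, 1878 and 1436 with Tet1CD. In Vc- it had 831, 751, 765 and 435, and 1074, 1392 and 1340. Both sets of groups were apart. It rose by 1.86 ± 0.16 in Vc+ (adjusted p = 0.000768) and 0.69 ± 0.10 in Vc- (adjusted p = 0.0129), a difference of 1.17 ± 0.21 (adjusted p = 0.00765), and by 1.27 ± 0.21 over both (adjusted p = 0.000856).

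Col12a1, which sits on the surface of collagen I fibrils, had 3126, 1481, 1458 and 1018 in Vc+ and 5715, 4583 and 4772 with Tet1CD. Its Vc- values were 2697, 1965, 2540 and 1525, and 2697, 2444 and 3006. The groups were apart in Vc+ and overlapped in Vc-. It rose by 1.40 ± 0.17 in Vc+ (adjusted p = 0.00191), had 0.19 ± 0.07 in Vc- (adjusted p = 0.126), and differed between media by 1.22 ± 0.21 (adjusted p = 0.00625). Col16a1, of the same fibril-associated family, had 189, 115, 123 and 84 in Vc+ and 320, 306 and 457 with Tet1CD, and in Vc- 88, 79, 95 and 104 and then 129, 162 and 158. Within each medium it was higher in every library with Tet1CD than in any without it, and it rose by 1.03 ± 0.20 over both media (adjusted p = 0.00193).

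Since Tet1 acts on methylated CG sites, the 250 bases before the start are printed for the 3 members with the largest Tet1CD changes in Vc+ and for Prelp, the member with the largest ratio of SKOM cells to MEFs. They are from RefSeq on GRCm38.p6, 5′ to 3′ on the gene's strand, with each CG in capitals, at chr9:105960644-105960893 (Col6a5, minus), chr9:108953336-108953585 (Col7a1, plus), chr16:57754738-57754987 (Col8a1, minus) and chr1:133921402-133921651 (Prelp, minus, where the RefSeq start lies 13 bases inside the deposited transcript).
Col6a5: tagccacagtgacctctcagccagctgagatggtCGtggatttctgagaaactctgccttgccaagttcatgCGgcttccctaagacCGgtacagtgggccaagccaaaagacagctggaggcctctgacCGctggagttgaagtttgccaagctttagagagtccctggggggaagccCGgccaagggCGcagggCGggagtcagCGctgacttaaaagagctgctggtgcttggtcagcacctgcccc
Col7a1: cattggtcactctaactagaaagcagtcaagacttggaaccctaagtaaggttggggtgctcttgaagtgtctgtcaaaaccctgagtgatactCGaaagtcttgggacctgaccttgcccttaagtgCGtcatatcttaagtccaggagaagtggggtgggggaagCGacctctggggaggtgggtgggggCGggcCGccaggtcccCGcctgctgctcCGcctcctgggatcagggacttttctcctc
Col8a1: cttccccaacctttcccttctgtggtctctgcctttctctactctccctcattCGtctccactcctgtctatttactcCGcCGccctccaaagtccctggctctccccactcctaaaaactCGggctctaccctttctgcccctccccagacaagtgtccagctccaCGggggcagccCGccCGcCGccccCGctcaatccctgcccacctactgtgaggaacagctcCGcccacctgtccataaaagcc
Prelp: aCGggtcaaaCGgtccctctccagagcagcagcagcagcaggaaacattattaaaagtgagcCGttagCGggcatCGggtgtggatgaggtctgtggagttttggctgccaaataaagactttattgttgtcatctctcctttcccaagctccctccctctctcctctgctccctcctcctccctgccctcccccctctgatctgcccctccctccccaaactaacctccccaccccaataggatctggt
These stretches hold 8, 7, 10 and 5 CG sites. CG reads the same on both strands, so 1 strand was searched. Over windows of 300 bases, which reach 50 bases past the start, Col6a5 held 10, Col7a1 and Col8a1 12 and Prelp 7, and 43.5%, 39.6%, 39.6% and 52.1% of the 32851 windows of all genes held at least as many. A window was found for 45 of the 63 members, 33 of them with a start within 100 bases of the deposited one, and that of Lama2 lay 628428 bases away. The median of the 45 was 10 CG sites, against 7 over all windows, and it was 10 in the 29 members that rose in Vc+ and 7 in the 14 that did not, with Col3a1 at 0 among those that rose. The windows of all genes were not limited to genes listed here or to 1 window per gene. No methylation was measured in the values used here.

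Laminins and nidogens rose in nearly full number in the fit over both media (11 of 12), though by small steps for most. In the separate fits 6 of 12 rose in Vc- and 7 of 12 in Vc+, where 7.25% and 20.7% of all genes rose. Lama3, a laminin alpha chain of epithelia, had 52, 41, 92 and 59 in Vc- and 101, 75 and 131 with Tet1CD. In Vc+ it had 153, 144, 205 and 118, and 396, 345 and 371. The Vc- groups overlapped through shDnmt1 and the Vc+ groups were apart. Lama3 rose by 0.93 ± 0.14 over both media (adjusted p = 0.000583). Lamb3, a beta chain of epithelial laminin, had 77, 85, 133 and 74 in Vc- and 155, 128 and 163 with Tet1CD, and in Vc+ 147, 151, 232 and 133, and 149, 130 and 209. Both pairs of groups overlapped. It rose by 0.60 ± 0.13 in Vc- (adjusted p = 0.0320), had -0.11 ± 0.10 in Vc+ (adjusted p = 0.414), and differed between media by -0.72 ± 0.18 (adjusted p = 0.0277), a call lost without Vc- control, Dnmt1, Tet1CD or Tet1CD with Dnmt1, or without Vc+ Dnmt1 or Tet1CD with Dnmt1 (adjusted p = 0.0665 to 0.0965).

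Nid1, the nidogen that links laminin to collagen IV, had 1784, 1452, 1414 and 1262 in Vc+ and 2945, 2945 and 2639 with Tet1CD. Without vitamin C the values were 1639, 1305, 1451 and 1041, and 1528, 1639 and 1557. The groups were apart in Vc+ alone. It rose by 0.88 ± 0.09 there (adjusted p = 0.00126), had 0.11 ± 0.09 in Vc- (adjusted p = 0.417), and differed by 0.77 ± 0.14 (adjusted p = 0.00700). Lama1, Lama2, Lama4, Lama5, Lamb1, Lamb2, Lamc1 and Nid2 had changes of 0.19 to 0.48 over both media, all past the threshold, though Lama4 (0.19) and Lama5 (0.21) lost the call without any one of 9 and 4 libraries (adjusted p = 0.0557 to 0.0956 and 0.0619 to 0.0721). For Lama1, Lama5 and Lamc1 the libraries with and without Tet1CD overlapped in both media.

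**Figure D2:**
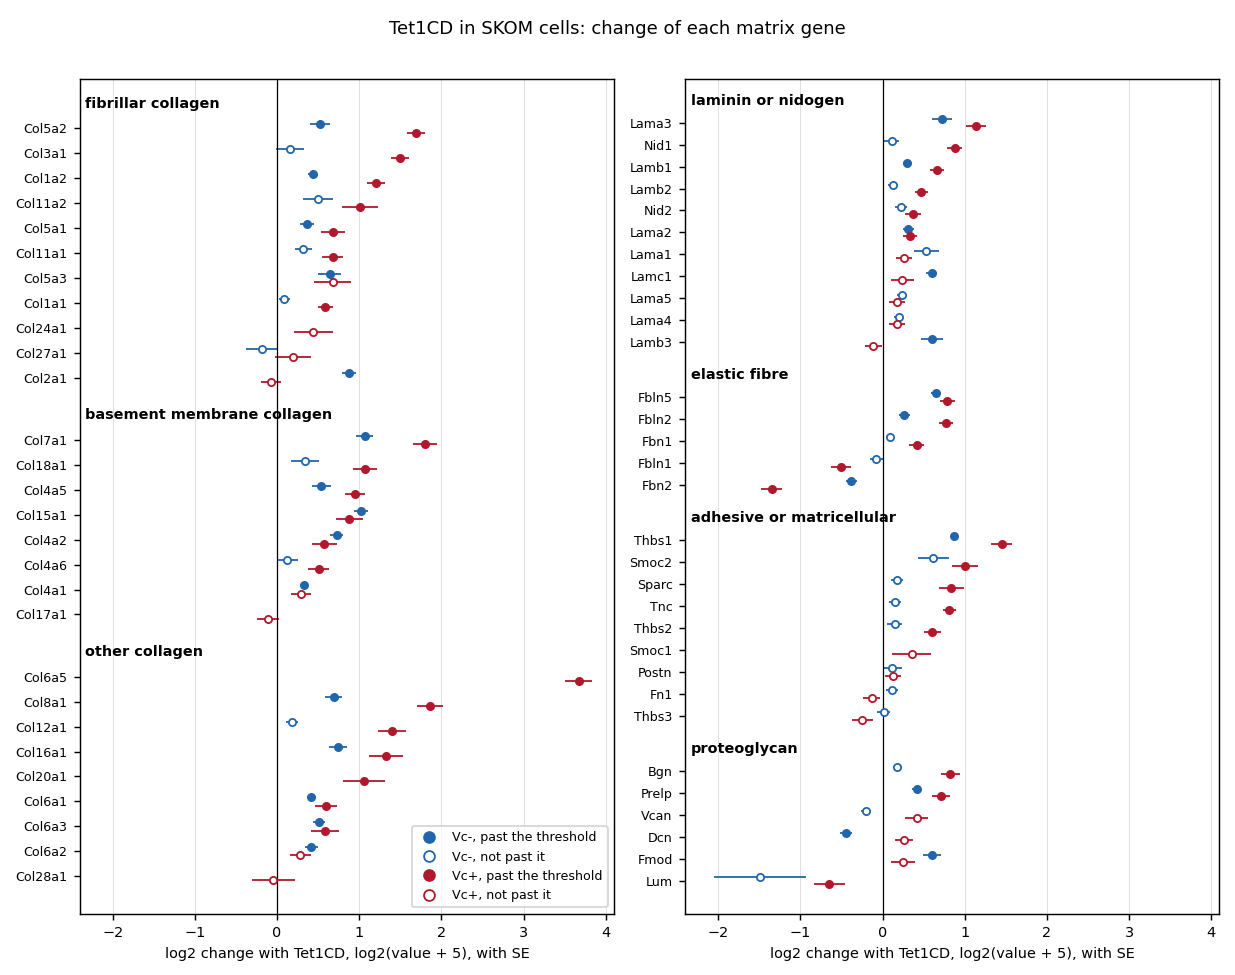
Change with Tet1CD on the scale of log2(value + 5) (horizontal axis, with the SE as bars) for 59 members tested in Vc- (blue) or Vc+ (red), by class, from separate limma fits to the 7 libraries of each medium. Filled points passed an adjusted p of 0.05; in Vc+ 36 of the 59 members drawn lie to the right of 0 and past the threshold, with Col6a5 at 3.67, and Fbn2, Lum and Fbln1 lie to the left and past it.

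Elastic fibre genes split. Fbn2, the fibrillin of embryonic microfibrils, had 2554, 2354, 1820 and 1464 in Vc+ and 784, 979 and 854 with Tet1CD. In Vc- it had 864, 760, 825 and 1255, and 721, 578 and 585. Within each medium every library with Tet1CD lay below every one without it. Fbn2 fell by 0.87 on the log2 scale over both media (SE 0.18, adjusted p = 0.00281), by 0.38 in Vc- (SE 0.07, adjusted p = 0.0190) and by 1.35 in Vc+ (SE 0.13, adjusted p = 0.000995), and the difference was -0.97 ± 0.16 (adjusted p = 0.00525). Its paralog Fbn1, of adult microfibrils, rose by 0.25 ± 0.09 (adjusted p = 0.0450). That call was lost without any one of 9 libraries (adjusted p = 0.0502 to 0.120), namely Vc- control, Dnmt1 or Tet1CD with Dnmt1, or any Vc+ library except shp53 with shDnmt1.

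Fbln1, a fibulin that binds fibronectin and elastin, had 228, 194, 157 and 184 in Vc+ and 133, 144 and 123 with Tet1CD. Vc- libraries had 124, 105, 109 and 137, and 118, 100 and 102. The groups were apart in Vc+ and overlapped in Vc-. It fell by 0.29 over both media (SE 0.10, adjusted p = 0.0279), a call lost without any one of 4 Vc+ libraries, control, Dnmt1, Tet1CD or Tet1CD with shDnmt1 (adjusted p = 0.0610 to 0.0792). Fbln5 and Fbln2, which help assemble elastic fibres, rose by 0.72 ± 0.07 (adjusted p = 0.000105) and 0.52 ± 0.12 (adjusted p = 0.00529).

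Thbs1, a trimeric adhesive glycoprotein that activates latent TGF-beta, had 10794 in each of the 4 Vc- libraries without Tet1CD and 19681 in the 3 with it. In Vc+ it had 13567, 9361, 9361 and 6121, then 28926 in all 3. Both values with Tet1CD are the ceiling of their table, so the size of the rise, 1.16 ± 0.16 (adjusted p = 0.000417), is set by that limit. Of the other adhesive proteins, Smoc2, Sparc, Tnc and Thbs2 rose by 0.38 to 0.81 over both media. Fn1, the fibronectin that cells assemble first into fibrils, had -0.01 ± 0.10 (adjusted p = 0.958), and it too sat near the top of its tables, at 8461 to 13571 in SKOM cells.

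Among proteoglycans, Dcn and Lum, which coat collagen fibrils and are neighbours on chromosome 10, did not follow the collagens. Dcn had 335, 296, 279 and 234 in Vc- and 227, 220 and 217 with Tet1CD. In Vc+ it had 286, 226, 251 and 195, and 366, 294 and 261. The libraries with Tet1CD lay below the rest in Vc- and overlapped them in Vc+. Dcn fell by 0.44 in Vc- (SE 0.07, adjusted p = 0.0167), had 0.26 ± 0.11 in Vc+ (adjusted p = 0.0932), and differed between media by 0.70 ± 0.13 (adjusted p = 0.00833).

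In Vc-, Lum had 58, 37, 39 and 50 without Tet1CD and 1, 33 and 18 with it, a change of -1.49 ± 0.56 (adjusted p = 0.120). Its groups were apart there, with 1 library near 0. Lum had 91, 61, 85 and a listed 0 in Vc+ and 68, 30 and 53 with Tet1CD, groups that overlap. Its fall there was 0.65 (SE 0.19, adjusted p = 0.0354 by limma). The listed 0 is from the Vc+ library of shp53 with shDnmt1. The shp53 term of the model takes up that library, so the listed 0 does not enter this fall. Without the Vc+ library with Tet1CD, Tet1CD with Dnmt1, Tet1CD with shDnmt1, control, Dnmt1 or shDnmt1 the adjusted p was 0.0592 to 0.238. Prelp, Bgn and Fmod rose over both media by 0.56, 0.50 and 0.43, and Vcan had 0.11 ± 0.13.

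Differences between media were tested for all 54 members in both tables. Each medium has its own table and its own list of values. A shift common to a table cancels in the difference, but unequal spacing of the lists does not. Such spacing cannot be told apart from an effect of vitamin C. The Tet1CD change was larger in Vc+ for 18 members and smaller for 3, where 8.57% and 8.28% of all genes, together 16.9%, were called in these directions. Beside those above, the 18 include Tnc, Sparc, Bgn, Vcan, Thbs1, Fbln2, Col1a1, Lamb1 and Lamb2, with differences of 0.35 to 0.66, and of these 9 all but Tnc lost the call without at least 1 single library. The count was 9 without any one of 6 libraries (Vc- control, Vc- shDnmt1, Vc- Tet1CD, Vc- Tet1CD with shDnmt1, Vc+ Dnmt1, or Vc+ Tet1CD with Dnmt1), and 3 and 1 without all libraries labelled Dnmt1, beside 153 and 109 of all genes. The count of 3 smaller changes was 5 without Vc+ Tet1CD with shDnmt1 and 6 without Vc+ shDnmt1.

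Genes that make, bind and turn over matrix were given as lists. Over both media with Tet1CD, where 20.3% of all genes rose and 24.9% fell, 11 of 21 collagen processing genes rose and 0 fell, the largest being Lox (0.99 ± 0.20), Loxl3 (0.95 ± 0.10) and Adamts2 (0.85 ± 0.15), which crosslink collagen or cut its propeptide. Of matrix receptors 13 of 22 rose and 0 fell, among them the integrin chains Itga11 (1.30 ± 0.22), Itgb1 (0.68 ± 0.16) and Itgav (0.58 ± 0.10). Itgb1 was at the ceiling of 19681 in all 3 Vc- libraries with Tet1CD and in Vc- shDnmt1, and at that of 28926 in Vc+ Tet1CD with Dnmt1, so the size of its rise is set in part by that limit. Of matrix turnover genes 11 of 13 rose and 0 fell, among them the proteoglycan-cutting Adamts5 (0.98 ± 0.09) and the plasminogen activator Plau (0.82 ± 0.17). Of TGF-beta ligands and direct targets 11 of 15 rose and 1 fell, Ltbp4 (-0.31 ± 0.09). Medians of these 4 lists were 0.19, 0.33, 0.55 and 0.53, beside -0.04 over all genes.

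Markers of other cell types moved with Tet1CD in the same libraries. All 4 tested genes of the 9 macrophage and leukocyte markers rose, and their summed level was 302 to 400 without and 633 to 735 with Tet1CD in Vc-, and 338 to 493 and 2449 to 3250 in Vc+, where 5 were listed. Of that list Adgre1, Csf1r, Fcer1g and Tyrobp were not listed in either SKOM table, nor Lyz2 in Vc-. Of 6 tested epithelial markers 4 fell and 0 rose, with sums of 3256 to 4690 without and 2493 to 2631 with Tet1CD in Vc-, and 4832 to 6471 and 2551 to 3609 in Vc+. Cd24a made up most of each epithelial sum, at 2872 to 4220 and 2192 to 2300 in Vc-, and 4033 to 5163 and 1996 to 3019 in Vc+. Of 11 tested fibroblast markers 5 rose and 0 fell, with a median of 0.29 and sums of 26613 to 28272 and 28356 to 29903 in Vc-, and overlapping sums of 24897 to 38412 and 26205 to 30533 in Vc+. Vim, at the ceiling of 19681 in all 7 Vc- libraries and at 13571 to 28926 in Vc+, made up most of each of these sums. Without it they were 6932 to 8591 and 8675 to 10222 in Vc-, and 6778 to 9486 and 11955 to 12634 in Vc+, apart in both media and higher with Tet1CD. Their part in the result was not tested. In bulk RNA, fewer cells of a type and less RNA per cell cannot be told apart.

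No member passed the test for the other constructs in SKOM cells. For shDnmt1 0 of 54 were called (0% of all genes rose and 0.0187% fell), for the Dnmt1 label 0 of 54 (0% and 0%), and for shp53 0 of 54 (0% and 0.00934%). At an unadjusted p under 0.05, limma gave 1, 0 and 15 members, beside 383, 84 and 1129 genes. Median member changes were -0.06, -0.12 and -0.31, against 0.00, 0.00 and 0.01 over all genes. A change above 0 was seen in 21 of 54 members for shDnmt1, 3 for the Dnmt1 label and 10 for shp53, where 49%, 49.4% and 51.4% of all genes had one. Values with the smallest p were those of the shp53 term, whose libraries all carry shDnmt1 as well. They were Fbln5, with -0.61 ± 0.12 (adjusted p = 0.174), Prelp, with -0.64 ± 0.16 (adjusted p = 0.281), and Fmod, with -0.59 ± 0.17 (adjusted p = 0.352).

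As ratios of 2 libraries, shp53 with shDnmt1 against shDnmt1, 9 of 49 members were lower by at least 0.58 on the log2 scale in Vc- and 1 was higher (2.85% and 1.78% of genes with a mean of at least 50), and in Vc+ 10 of 55 were lower and 0 higher (3.35% and 1.77%). Col8a1, Lama3, Lamb3 and Fmod were lower in both. For Lama3 and Lamb3 the shDnmt1 library was the highest of those without Tet1CD in each medium. Lamb3 was 74 against 133 in Vc- and 133 against 232 in Vc+, with controls at 77 and 147. Lama3 was 59 against 92 and 118 against 205, with controls at 52 and 153. Col8a1 was 435 against 765 in Vc- and 312 against 546 in Vc+. Col18a1, the collagen that carries endostatin, was 41 against 103 in Vc-. Fbn2, at 1255 against 825 in Vc-, was the 1 that was higher. These ratios have no replicate check.

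MEFs gave the same contrast in 2 pairs that share no library, shp53 against control and shp53 with shDnmt1 against shDnmt1. Of 53 members with a mean of at least 50, 16 were lower by at least 0.58 in both pairs and 0 were higher, where 6.26% and 5.91% of 9928 genes were. The median member ratio was -0.47 against -0.01 over all genes. The 16 were Col1a1, Col1a2, Col2a1, Col11a1, Col4a5, Col7a1, Col18a1, Col8a1, Col10a1, Fbln2, Sparc, Smoc1, Thbs1, Bgn, Fmod and Prelp.

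Col10a1 (chr10:34389981-34397085, plus strand), the collagen of hypertrophic cartilage, had the lowest ratio, at 20 against 212 and 43 against 305, with log2 ratios of -3.12 and -2.69. Fbln2 was at the ceiling of 38803 in both libraries without shp53 and at 12464 and 10830 with it, so its ratios of -1.64 and -1.84 may be understated by that limit. Col18a1 was 66 against 314 and 229 against 438 (-2.17 and -0.92). Both pairs had the lower value in the library with shp53, but by unequal amounts.

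Fmod, a collagen-binding proteoglycan, was 75 against 206 and 62 against 194 (-1.40 and -1.57). Its neighbour Prelp, which anchors basement membrane to connective tissue and starts 115840 bases from it in opposite orientation, was 70 against 169 and 63 against 218 (-1.21 and -1.71). For both genes the 2 libraries with shp53 were the lowest of the 6, and close to each other. Bgn, Col1a2 and Thbs1 left the ceiling with shp53, where Fn1 alone of the members stayed at it.

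Fibroblast marker sums in these libraries were 40770 (control), 37998 (shp53), 43511 (shDnmt1) and 40072 (shp53 with shDnmt1), and without Vim they were 20929, 18157, 23670 and 20231, lower with shp53 in both pairs. The 6 listed macrophage and leukocyte markers summed to 239, 536, 1008 and 106 in the same order, higher with shp53 in one pair and lower in the other. Cartilage markers, of which Sox9 and Hapln1 were listed, summed to 219, 235, 236 and 238. Their part in the result was not tested.

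**Figure D3:**
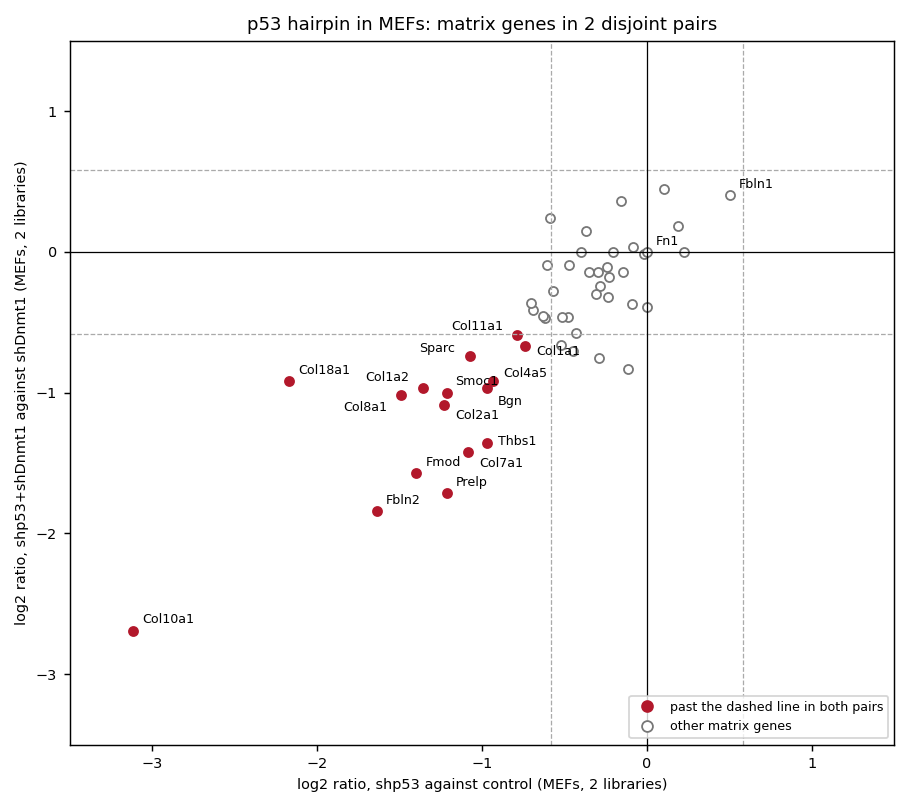
Log2 ratio of each of 52 matrix genes in MEFs with the p53 hairpin, for shp53 against control (horizontal axis) and shp53 with shDnmt1 against shDnmt1 (vertical axis), each from 2 libraries. Dashed lines mark 0.58 in either direction; 16 genes (red) lie below it in both pairs, with Col10a1 at -3.12 and -2.69, and none lies above it in both.

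The hairpin against Dnmt1 in MEFs left 2 of 53 members higher in both of its pairs and 0 lower (0.433% and 0.534% of genes). Col15a1 was 55 against 34 and, with shp53, 72 against 30, and Col5a1 was 12464 against 8038 and 9030 against 5617. These pairs reuse the 4 libraries of the shp53 contrast. Tet1CD in MEFs, from 1 library against control, left 4 members higher and 4 lower (4.95% and 5.96%). Among the higher ones were Col5a2 (38803 against 19852, at the ceiling), Col7a1 (1043 against 551) and Col8a1 (6680 against 4125). Col5a2 was at the ceiling in the MEF library with Dnmt1 and no Tet1CD too, and the control value lies in the next step below it. The 4 lower ones were Fbn2 (116 against 504), Col10a1 (90 against 212), Col11a1 (438 against 844) and Thbs3 (163 against 264). The log2 ratios of Fbn2 and Col7a1 were -2.07 and 0.91, beside a median of 0.00 over the members. In this library 35.8% of ranks held another value than in the control, and its macrophage and leukocyte markers summed to 1421 against 239, whose part in the ratios was not tested.

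SKOM cells were set against MEFs with the same construct in 5 pairs per medium. Because the tables had been normalized separately, each log2 ratio was centred on the median of its pair, which lay between -0.30 and -0.27 in Vc- and between 0.24 and 0.31 in Vc+, and no test was made. A member counted as called when all 5 pairs had 1 direction and their median was at least 1. In Vc- 8 of 51 members were higher and 23 lower (6.02% and 7.46% of genes), and in Vc+ 7 of 53 were higher and 24 lower (6.72% and 10.8%). The 2 contrasts share the MEF libraries. Median member ratios were -0.58 and -0.94, against 0.00 and 0.01 over all genes.

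By class, fibrillar collagens and adhesive proteins lay on the lower side, with medians of -1.46 and -1.43 in Vc- and -1.50 and -1.82 in Vc+, and 0 of their members was higher. Laminins and nidogens had medians of 0.51 and 0.30, with 4 of 10 higher and 2 lower in Vc- and 3 higher and 2 lower in Vc+. Basement membrane collagens had -0.46 and -0.52.

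Prelp (chr1:133910304-133921414, minus strand) had the highest ratio, 4.56 in Vc- and 4.32 in Vc+. Its lowest, median and highest values were 63, 181.5 and 234 in the 6 MEF libraries, 2234, 3689 and 5060 in Vc- and 2727, 4283 and 7072 in Vc+. No SKOM library came near the MEF range. Lama4, the alpha chain of laminins of vessels and muscle, had 182, 224 and 316 in MEFs, 1624, 1728 and 1974 in Vc-, and 1737, 2482 and 2599 in Vc+, with ratios of 2.94 and 2.81. Its ranges too were apart.

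Fbn2 had 116, 383 and 504 in MEFs, 578, 760 and 1255 in Vc- and 784, 1464 and 2554 in Vc+ (ratios 1.49 and 2.06). Col15a1 had 24, 35 and 72 in MEFs, 83, 117 and 188 in Vc- and 191, 250 and 466 in Vc+ (ratios 1.37 and 1.95). For both genes every SKOM library exceeded every MEF library. Col6a1 (1.38 and 1.16) and Lama1 (1.25 and 1.81) were also higher in both media, and Nid2 (1.25) in Vc-.

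Bgn, a proteoglycan that binds collagen and TGF-beta, had the lowest ratio, -4.22 and -4.60. It had 19818, 38803 and 38803 in MEFs, 1084, 1720 and 1888 in Vc-, and 1159, 1962 and 3343 in Vc+. Since 4 of its 6 MEF values are the ceiling, the ratio is limited by it. Smoc2, a calcium-binding matricellular protein, had 586, 858.5 and 1010 in MEFs, 26, 46 and 71 in Vc-, and 28, 51 and 115 in Vc+ (-4.13 and -4.48). The SKOM values lay far below those of MEFs.

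Fbln2 had 10830, 38803 and 38803 in MEFs, 2040, 2627 and 3122 in Vc-, and 1781, 3341 and 5359 in Vc+ (-3.61 and -3.84), again from the ceiling. Postn, which supports collagen crosslinking in wounds, had 2167, 2833 and 3848 in MEFs, 211, 245 and 280 in Vc-, and 248, 333 and 351 in Vc+ (-3.47 and -3.62). Neither gene overlapped between SKOM and MEF libraries. Col7a1 (-2.80 and -2.55), at 257, 615 and 1043 in MEFs and 74, 112 and 465 in Vc+, overlapped there through the libraries with Tet1CD. Both type I collagen chains were lower in both media, Col1a1 by -1.46 and -1.97 and Col1a2 by -2.73 and -2.75.

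Members listed on 1 side of this contrast were left out of the ratios. Col10a1, Acan and Eln were listed in MEFs and in neither SKOM table, while Lama3, Lamb3, Col11a2, Col17a1, Col20a1, Col28a1 and Col6a5 were listed in SKOM cells and not in MEFs. A gene is listed where at least 2 libraries of its table reach 32. Epithelial markers were listed for 3 of 11 in MEFs, with sums of 1749 to 2491, and for 6 and 7 of 11 in SKOM cells, where their sums ran from 2493 to 4690 in Vc- and from 2551 to 6471 in Vc+. Cd24a alone made up most of each sum, at 1439 to 2195 in MEFs, 2192 to 4220 in Vc- and 1996 to 5163 in Vc+. Sums without Cd24a were not taken. Cdh1 and Epcam were among the epithelial markers not listed in MEFs. Their part in the ratios was not tested.

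**Figure D4:**
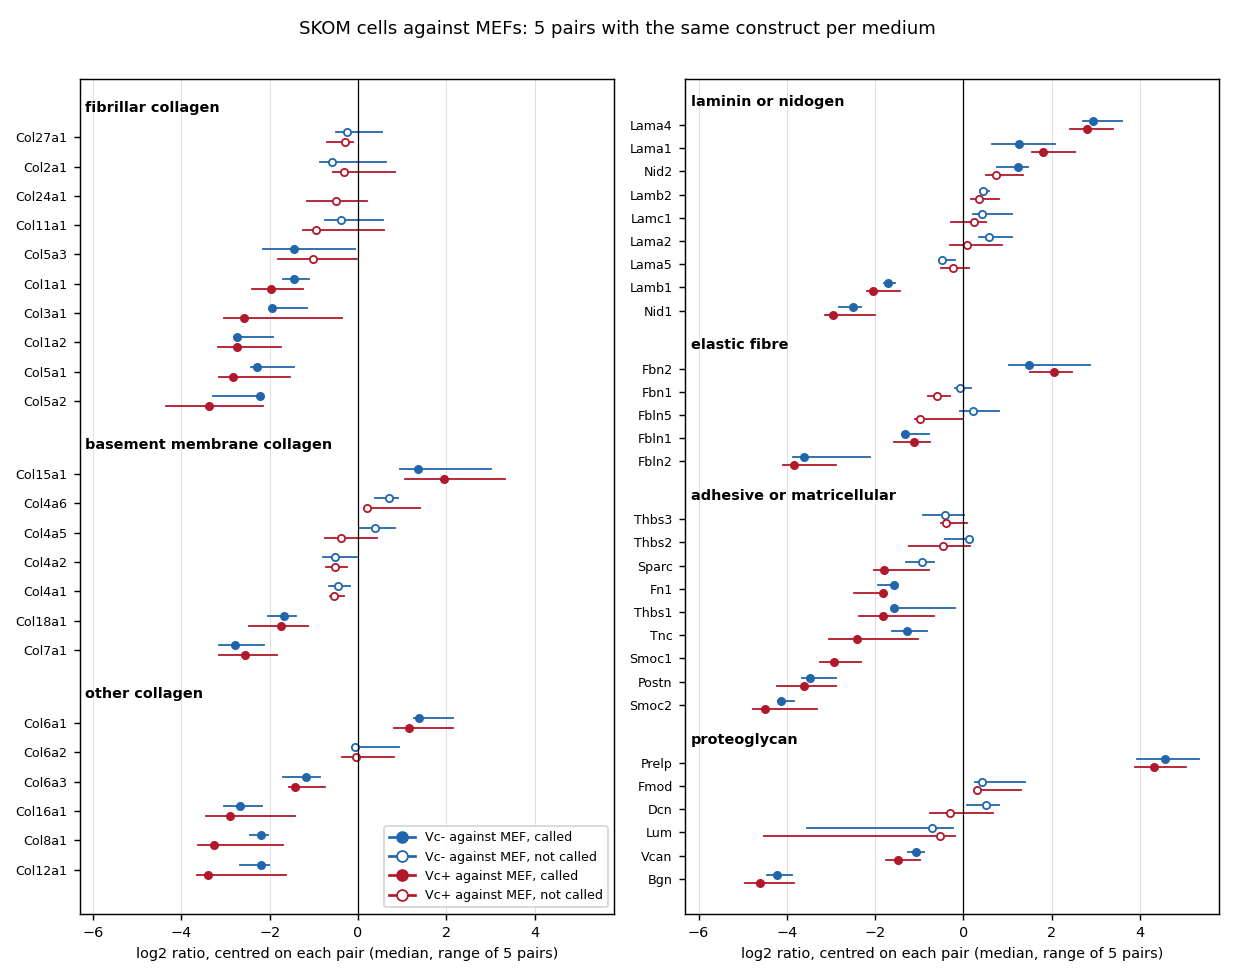
Log2 ratio of SKOM cells to MEFs with the same construct, centred on each pair's median (horizontal axis), for members by class, with the median (point) and range (line) of 5 pairs in Vc- (blue) and Vc+ (red). Filled points are called (1 direction in all pairs and a median of at least 1); Prelp lies at 4.56 and 4.32, Bgn at -4.22 and -4.60, and no fibrillar collagen or adhesive protein is called on the right.

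Vitamin C is a cofactor of the prolyl and lysyl hydroxylases that stabilise collagen and also of the Tet enzymes. Over the 7 pairs of Vc+ against Vc- libraries with the same construct, centred in the same way on medians of 0.52 to 0.57, 0 of 54 members were higher and 1 was lower (0.392% and 0.215% of genes), namely Fbln5, and that count was 0 without the pair with Dnmt1, shDnmt1, or Tet1CD with shDnmt1, and 2 without the Tet1CD pair. Fbln5 had 2701, 2632, 2632 and 1528 in Vc- and 1997, 1590, 1622 and 1227 in Vc+ without Tet1CD, and 3892, 4220 and 4426 against 3170, 3079 and 2729 with it. It was lower in 7 of 7 pairs, with a median ratio of -1.004 (-0.454 without centring). In the 4 pairs without Tet1CD 5 members were lower and 0 higher (0.728% and 0.598%), Fbln5, Col5a2, Tnc, Col12a1 and Col8a1, with medians of -1.05 to -1.13, and 3 were lower without the shDnmt1 pair or the pair of shp53 with shDnmt1. In the 3 pairs with Tet1CD 1 member was higher and 0 lower (1.48% and 0.71%), Lama3, at 396, 345 and 371 against 101, 75 and 131 (median ratio 1.39). There, 2 were higher without the pair of Tet1CD with Dnmt1, and 1 was lower without that pair or the Tet1CD pair.

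These counts depend on the centring. Without it, 4 members were higher and 0 lower over all 7 pairs, 4 and 0 without Tet1CD, and 10 and 0 with Tet1CD. All genes shifted likewise, with 3.86% higher and 0% lower over all pairs, 6.6% and 0.0373% without Tet1CD, and 6.96% and 0.084% with it. Median member ratios were then 0.34, 0.31 and 0.53, against 0.55, 0.57 and 0.52 over all genes. Since a shift common to a table cannot be told apart from its normalization, only the order of members within a table's shift can be read.

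The library labelled 5C differed from the MEF control in many genes, and its sorted values follow another list than those of the other MEF libraries, with 97.1% of ranks holding another value. Of 53 members 11 were higher by at least 1 on the log2 scale and 22 lower, where 20% and 27.4% of genes were. The share of higher members is near that of all genes. Lum was 3258 against 84, a ratio of 5.20, and Dcn 8059 against 229, a ratio of 5.11. Col18a1 (2951 against 314, ratio 3.21), Col24a1 (295 against 28, ratio 3.18) and Col27a1 (446 against 47, ratio 3.12) came next. Lum and Dcn thus stood apart from the other members on the higher side.

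On the lower side Thbs1 was 758 against 38803, a ratio of -5.67, and Col2a1 was 13 against 565, a ratio of -4.98. Fbln2 was 2651 against 38803 (-3.87), Col12a1 1163 against 15086 (-3.69) and Nid1 886 against 9988 (-3.49). In 5C Col1a2 and Col3a1 were at the ceiling of 38803, against 38803 and 5387 in the control. Fibroblast markers summed to 54089 in 5C against 40770, but Vim alone was 38803 against 19841, and the other 11 summed to 15286 against 20929. In the same libraries macrophage and leukocyte markers summed to 4662 against 239, with Lyz2 at 2964 against 129. Epithelial markers summed to 317 against 2246, of which Cd24a alone was 252 against 1930. The part of these markers in the ratios was not tested.

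**Figure D5:**
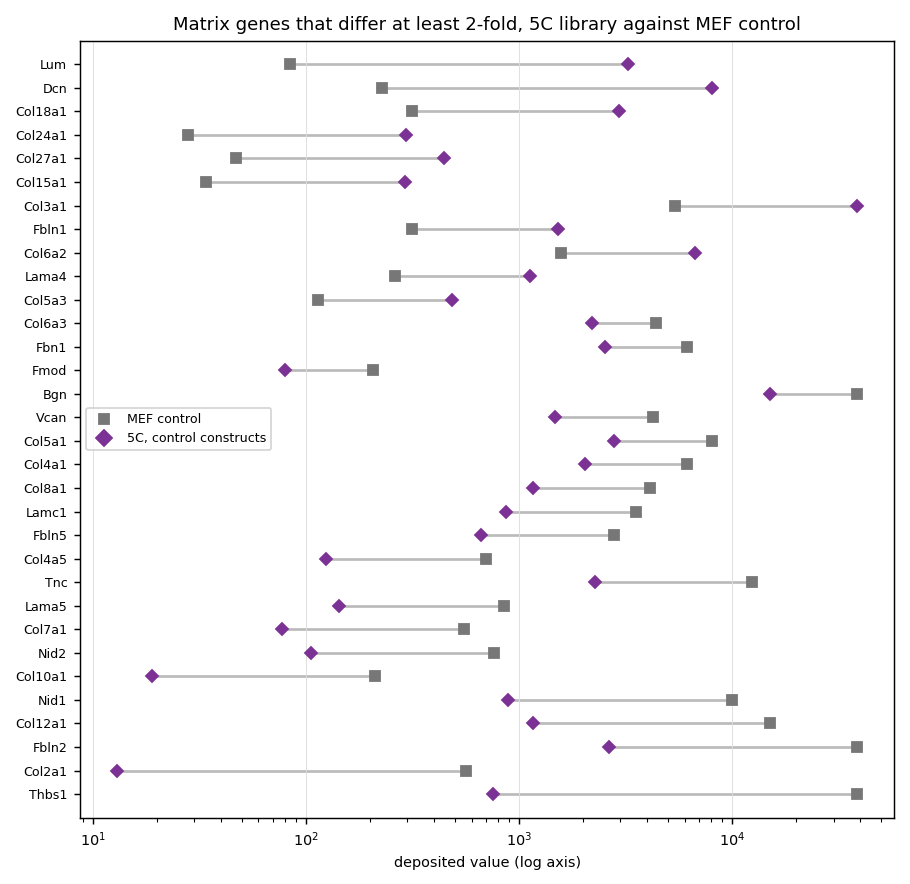
Deposited value (horizontal log axis) in the MEF control (grey squares) and in the 5C library (purple diamonds) for 32 matrix genes that differ by at least 1 on the log2 scale, 1 library each, ordered by ratio. Lum and Dcn are at 3258 and 8059 in 5C against 84 and 229, and Thbs1 and Col2a1 are at 758 and 13 against 38803 and 565.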

How the data were processed

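RNA of 21 libraries (7 MEF, 7 SKOM without and 7 with vitamin C) had been sequenced with a TruSeq kit, per the labels' protocols. Bowtie, RSEM and mm10 (a mouse genome build) are listed, without versions, per the submitters' processing notes. The authors deposited 1 table per setting, whose whole-number values are treated as a score: they had been normalized within each table by a method not given in the sources used here, so they are not counts and depth is unknown. A gene is listed where at least 2 libraries of a table reach 32.

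The members and lists were chosen with earlier results of these data known. For SKOM cells, limma 3.58.1 (R 4.3.3, with an intensity trend) was fitted to log2(value + 5) for every gene averaging 10 or more, with terms for Tet1CD, shDnmt1, the Dnmt1 label, shp53 and, over both tables, vitamin C. A gene passed at a Benjamini-Hochberg adjusted p under 0.05 over all genes tested. Fits were tested on simulated data. MEF ratios used genes with a mean of at least 50 and were called at 0.58 on the log2 scale (1 for 5C), with no test, and ratios between tables at a median of 1 after centring. Members were named by role, with full values for up to 8 per direction in tested comparisons and 5 in others, and up to 3 genes per other list. A few genes that are in the counts and medians are not reported here by name or drawn. Endothelial, cartilage and muscle markers were also examined: with Tet1CD in SKOM cells, of the tested genes 1 of 2 endothelial rose and 1 fell, 1 of 1 cartilage fell and 1 of 1 muscle rose. Alternatives were pseudocounts of 1 and 20, other filters, no trend, centring, further interaction terms and leaving out single libraries.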

Additional observations from a re-analysis of the deposited data

Results flagged for a closer look

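The change with Tet1CD differed between SKOM cells with and without vitamin C for the matrix genes named here, by the interaction term of limma with a Benjamini-Hochberg adjusted p under 0.05. Each medium has its own table, so unequal spacing of the tables' values cannot be told apart from an effect of vitamin C. Positive differences, on the scale of log2(value + 5), stand for a larger change in Vc+. Among collagens they were 1.33 for Col3a1, 1.22 for Col12a1, 1.17 for Col8a1, 1.17 for Col5a2, 0.77 for Col1a2, 0.74 for Col7a1, 0.50 for Col1a1. Among laminins and nidogens they were 0.77 for Nid1, 0.36 for Lamb1, 0.35 for Lamb2. Among the other matrix proteins they were 0.70 for Dcn, 0.66 for Tnc, 0.66 for Sparc, 0.64 for Bgn, 0.61 for Vcan, 0.58 for Thbs1, 0.505 for Fbln2. The difference was negative for 3 genes: -0.72 for Lamb3, -0.95 for Col2a1, -0.97 for Fbn2. The number of members with a larger change in Vc+ was 9 when any one of 6 libraries was left out, and Thbs1 was at the ceiling of its table in all libraries with Tet1CD.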

How the results depend on the processing

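No single gene with a call changed sign under the alternatives run, but the vitamin C counts over all pairs and over those without Tet1CD turned from lower to higher members without centring (below). With all 4 libraries labelled Dnmt1 left out, an alternative chosen after seeing the data, Tet1CD in SKOM cells gave 20 members risen and 1 fallen (823 and 970 of all genes), its interaction with vitamin C 3 and 1 (153 and 109), the Vc- fit 1 and 0 (3 and 2), and the Vc+ fit 1 fallen (1175 and 1076). Without an intensity trend the Vc- fit gave 10 and 0 (204 and 100), and shp53 in SKOM cells 1 gene risen. For shp53 in SKOM cells 2 genes fell with a mean of at least 50 and 2 with libraries centred on their median. A pseudocount of 20 left 1 member higher for shDnmt1 in MEFs and 0 lower for vitamin C. Ratios for vitamin C without centring gave 4 higher and 0 lower over all pairs, 4 and 0 without Tet1CD, and 10 higher with Tet1CD.

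Leaving out single libraries, members risen and fallen with Tet1CD ranged from 37 to 43 and 1 to 2 in SKOM cells (1690 to 2390 and 2011 to 2925 genes), from 9 to 21 and 2 to 6 for the interaction (450 to 1148 and 311 to 1173), from 1 to 33 and 0 to 2 in Vc- (3 to 1158 and 2 to 1202), and from 25 to 37 and 1 to 3 in Vc+ (1146 to 2537 and 1049 to 2943). For shDnmt1 in SKOM cells 0 to 1 genes rose and 0 to 3 fell, and for shp53 0 rose and 1 to 5 fell. Leaving out pairs, vitamin C gave 0 to 1 members higher and 0 to 2 lower, 3 to 5 lower without Tet1CD, and 1 to 2 higher and 0 to 1 lower with it, and SKOM cells against MEFs 7 to 8 higher and 23 lower in Vc- and 7 higher and 24 to 26 lower in Vc+. In the separate fits and the interaction, leaving out a library with Tet1CD or its match without Tet1CD gives the same change. These omissions are therefore not separate checks. The cause of the shifts was not tested.

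No paired analysis was possible because each group has 1 library, so that no replicate number links libraries; libraries of different tables were matched on their construct alone, for ratios with no test. Depth is unknown, the top of each table is compressed, and 1 library per combination limits all tests.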
